A study of Mus musculus with 4 samples.

Results

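The cells described here were the microglia that the authors' finer clustering (resolution 0.4) placed in cluster 3. They numbered 10840 of the 74758 cells in the data set, and 10034 of them (92.6%) lay in cluster 1 of the coarser clustering at resolution 0.2. Cells came from 20 mice in 5 groups of 4, sacrificed 24 h after 1 intravenous dose of 10 mg/kg antibody. Cortical and hippocampal tissue was dissociated, and live CD11b+ cells were sorted and captured in 4 pools, each holding 1 mouse of every group. A replicate number below names the pool.

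The 2 WT groups received ATV:ISO and ATV:4D9, while the 3 AppSAA groups received ATV:ISO, plain 4D9 and ATV:4D9. All mice carried TfRmu/hu, a knock-in that puts the human apical domain into the mouse transferrin receptor (TfR), and were labelled homozygous. AppSAA is a homozygous knock-in of the App gene with a humanized amyloid-beta sequence and the Swedish, Arctic and Austrian mutations, under the gene's own promoter. 4D9 is an antibody to TREM2, a lipid-sensing receptor of microglia. ATV is an antibody Fc domain engineered to bind TfR, which carries antibodies across the blood-brain barrier. ATV:ISO is the control antibody with that Fc domain, named ATV-DNP02 in the labels and read here as the isotype control of the series text. WT ATV:ISO replicate 4 was recorded as female and the other 19 mice as male. The labels gave no age for single mice. Over all experiments of the study, AppSAA mice with TfRmu/hu were 8 months old and WT mice with TfRmu/hu from 2 to 8 months. The methods state that groups were matched by age and sex.

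Plaque-associated microglia are the cells that gather around amyloid deposits. They take up lipid and debris, raise genes such as Apoe, Cst7, Clec7a and Itgax, and lower the genes that mark resting microglia, such as P2ry12 and Tmem119. TREM2 and its adaptor TYROBP are needed for the full form of this state.

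Mice held 2193 to 6126 cells each, and cells had a median of 11351 UMIs (unique molecular identifiers, each standing for 1 captured transcript). There were 543 cell barcodes that occurred in more than 1 pool. Over all cells, 7141 had above 25000 UMIs. Levels below are in CPM, the UMIs of a gene summed over the cells of 1 mouse in a cluster and scaled to 1000000 UMIs for all genes, so that the mouse and not the cell is the replicate. A mouse entered only with at least 20 cells in the cluster, which left 17 mice for cluster 3.

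Cluster 3 was common in AppSAA mice and rare in WT mice. In AppSAA mice given ATV:ISO it took 24.0%, 31.9%, 26.2% and 28.4% of the cells of replicates 1 to 4. With 4D9 the shares were 26.3%, 24.9%, 29.9% and 28.8%, and with ATV:4D9 they were 7.14%, 12.001%, 10.7% and 11.2%. The ATV:4D9 shares lay below every share of the other 2 AppSAA groups, whose own values overlapped. In WT mice the shares were 1.00%, 1.83%, 1.09% and 0.870% with ATV:ISO, and 0.665%, 0.402%, 0.303% and 0.449% with ATV:4D9. The WT shares rested on 22 to 45 cells with ATV:ISO and on 9 to 30 cells with ATV:4D9. For WT ATV:4D9 replicate 3, the 95% Wilson interval ran from 0.159% to 0.575%, which covers counting error only.

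**Figure D1:**
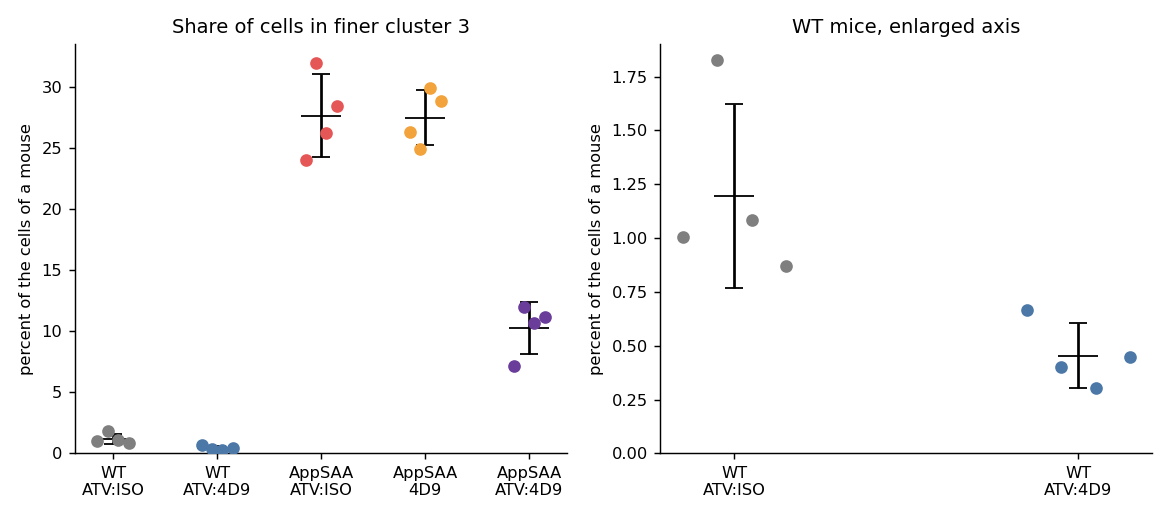
Share of the cells of each mouse in finer cluster 3, in percent, by group. Points are mice, horizontal bars are means and vertical bars are SD (n = 4), and the right panel repeats the WT mice on an enlarged axis. AppSAA mice given ATV:4D9 lie between 7.14% and 12.001%, and all other AppSAA mice at 24.0% or above.

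The share differed between genotypes under either antibody with the ATV. It was 27.6% ± 3.37 (SD, n = 4) in AppSAA and 1.20% ± 0.429 (SD, n = 4) in WT mice given ATV:ISO, and 10.2% ± 2.14 against 0.455% ± 0.153 with ATV:4D9. ATV:4D9 lowered the share against ATV:ISO by 17.4 percentage points in AppSAA mice and by 0.741 points in WT mice, in 4 of 4 pools each. Against 4D9 (27.5% ± 2.28) the fall was 17.2 points in AppSAA mice, in 4 of 4 pools. Each of these 5 comparisons gave p = 0.0286 in a two-sided exact permutation test, the smallest value that 4 against 4 mice allow, and an adjusted p = 0.0343 over 6 comparisons. The sixth, 4D9 against ATV:ISO, differed by -0.159 points (exact permutation test, p = 1.0, adjusted p = 1.0). These tests do not use the pairing of mice by pool, and a test within 4 pools could not pass the threshold of 0.05. The WT fall passed the threshold only narrowly: among cells of 1000 to 25000 UMIs it was 0.539 points with an adjusted p = 0.0686 (exact permutation test).

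The fall in points was larger in AppSAA than in WT mice by 16.6 points (two-sided exact permutation test over 4 within-pool differences per genotype, p = 0.0286). No WT mouse given ATV:ISO had a share above 1.83%, so a WT fall in points could not be larger than that. The test in points was thus settled by the low WT start and cannot tell whether the genotypes responded differently. On the logit scale, which compares the relative changes, the change was -0.973 in WT and -1.22 in AppSAA mice, and the difference of -0.249 did not pass the test (exact permutation test, p = 0.429).

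A share depends on all clusters of a mouse, and the number of cells per brain was not measured. In AppSAA mice, finer cluster 6, which also carries the plaque markers, took 7.80% of the cells with ATV:ISO, 9.22% with 4D9 and 2.55% with ATV:4D9 (means, n = 4). Cluster 3 held 78.01% ± 3.42, 74.9% ± 0.746 and 80.7% ± 4.25 (SD, n = 4) of the cells of clusters 3 and 6 together in those groups. Finer cluster 0, whose homeostatic genes lay above those of cluster 3 and which stands for resting cells below, held 31.1% of the cells of AppSAA mice with ATV:ISO and 2.57% with ATV:4D9. Finer cluster 5 held 2.89% and 23.5%. These shares of other clusters are given without a test.

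Cells of cluster 3 were deeper than resting cells and shallower than those of cluster 6. In AppSAA mice given ATV:ISO, the median cell had 13976 ± 1020 UMIs in cluster 3, 7141 ± 526 in cluster 0 and 18505 ± 925 in cluster 6 (mean ± SD of mouse medians, n = 4). Within cluster 3 the mean of the mouse medians was 14162 UMIs with 4D9 and 12564 with ATV:4D9, and 14654 in WT mice given ATV:ISO. The ATV:4D9 medians were lower in 4 of 4 pools against both ATV:ISO (a mean difference of -1412 UMIs) and 4D9 (-1598 UMIs). None of 4 comparisons of these medians passed the test (two-sided exact permutation test, adjusted p from 0.343 to 0.857). Mitochondrial UMIs were a median of 1.81% with ATV:ISO and 1.84% with ATV:4D9 in AppSAA mice. Cells above 25000 UMIs made up 8.53% of cluster 3 in AppSAA mice given ATV:ISO and 21.1% in WT mice given ATV:ISO.

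The 4 marker genes of the label are Apoe, a lipid-carrying apolipoprotein (chr7:19696109-19699188), Cst7, an inhibitor of lysosomal proteases (chr2:150570415-150578944), Clec7a, a receptor for beta-glucans (chr6:129461591-129472779), and Itgax, the integrin chain CD11c (chr7:128129547-128150657). Coordinates are those of GENCODE M21 on GRCm38, the assembly also called mm10. That annotation types Clec7a as a polymorphic pseudogene and the other 3 as protein-coding. Since clusters were drawn from these same expression values, differences between clusters are a description and carry no test.

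Apoe in cluster 3 of AppSAA mice stood at 9617, 11039, 11473 and 10944.0 CPM with ATV:ISO, at 11922, 10150.5, 13655 and 11195 CPM with 4D9, and at 13818, 15624, 19169.9 and 13917 CPM with ATV:4D9. In finer cluster 0 of the mice given ATV:ISO it stood between 904 and 1536 CPM. Cst7 stood at 2286, 2219, 2237 and 1962 CPM in cluster 3 of the AppSAA mice given ATV:ISO, and between 89.1 and 135 CPM in their cluster 0. Clec7a stood at 539, 609, 645 and 675 CPM, against 37.7 to 65.4 CPM in cluster 0, and Itgax at 132, 166, 196 and 179 CPM, against 11.3 to 22.6 CPM. For all 4 genes, cluster 3 lay above cluster 0 in each of the 17 mice.

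**Figure D2:**
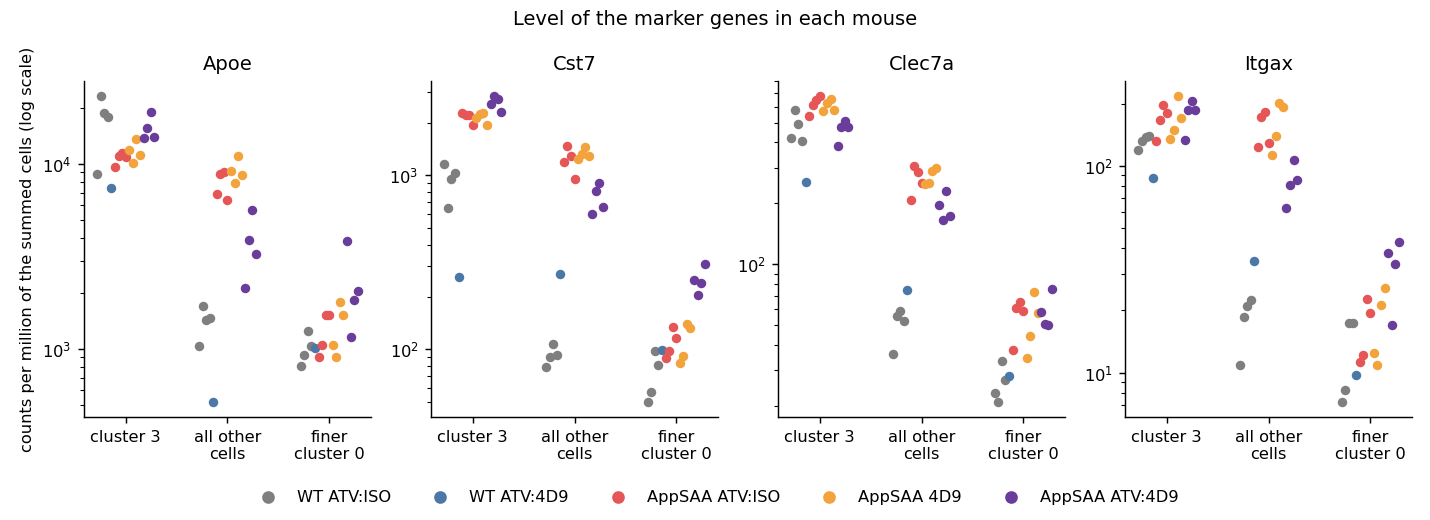
Level of the 4 marker genes in each mouse, in CPM on a log axis, for cluster 3, all cells outside it and finer cluster 0. Each point is 1 of 17 mice, coloured by group. All points of cluster 3 lie above those of cluster 0 for each gene, except that the lowest Cst7 point of cluster 3 (262 CPM, WT ATV:4D9) is within the range of cluster 0, while the cells outside cluster 3 span from WT mice with low to AppSAA mice with high levels.

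Cst7, Clec7a and Apoe were seen in most cells of cluster 3 and Itgax in fewer. With every cell thinned to 3000 UMIs, which left out 29 of 5208 cells of cluster 3 in AppSAA mice given ATV:ISO, a UMI of Cst7 was seen in 89.1% of these cells, of Clec7a in 76.6%, of Itgax in 31.5% and of Apoe in 97.1% (means of 4 mice). The shares without thinning were 97.1%, 96.7%, 66.7% and 99.8%. In cluster 0 of the same mice the thinned shares were 24.9%, 11.99%, 4.64% and 83.5%. Apoe was thus detected in most resting cells too, and whether those UMIs come from free RNA was not tested.

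Against all other cells of the same mouse, the label's markers were higher in cluster 3, but by amounts that depended on the group. The mean log2 ratio over 17 mice was 1.76 ± 1.43 (SD) for Apoe, 1.57 ± 1.16 for Cst7, 1.73 ± 0.89 for Clec7a and 1.07 ± 1.16 for Itgax. Apoe and Clec7a were higher in all 17 mice, Cst7 in 16 and Itgax in 15. For Apoe the ratio was 3.55 in WT mice given ATV:ISO, 0.48 in AppSAA mice given ATV:ISO, 0.36 with 4D9 and 2.14 with ATV:4D9. The other cells of AppSAA mice of the ATV:ISO and 4D9 groups themselves held much Apoe, at means of 7790 and 9171 CPM, against 1412 CPM in WT mice given ATV:ISO. Cluster 6 was among those other cells.

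Of 8153 genes described (mean of at least 10 CPM), 278 were higher in cluster 3 than in the other cells of every mouse (3.41%) and 1279 were lower (15.7%). At least 2-fold higher in every mouse were 3 genes (0.0368%), namely Lox, Egln3 and Minar1, and 4 were at least 2-fold lower (0.0491%), namely Mki67, Knl1, Tpx2 and Bank1. These counts depended on the cells and mice taken: they were 30 and 5 with cluster 6 left out of the other cells, 20 and 96 in the 4 AppSAA mice given ATV:ISO, and 7 and 12 without replicate 1. Minar1 (mean log2 ratio 2.22), Knl1 (-4.02) and Tpx2 (-3.56) lie below the level of 20 CPM from which genes were otherwise named, and were added after their values were seen. The median gene had a log2 ratio of -0.26, so ratios to the other cells are best read against that value.

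Lox and Egln3 had the highest mean ratios over the 17 mice among the genes of at least 20 CPM in cluster 3 with the same sign in every mouse, though the order differed between groups. Lox, a lysyl oxidase that crosslinks collagen, stood at 20.4 ± 7.34 CPM against 5.16 ± 3.10 (SD, n = 17; mean log2 ratio 2.28 ± 1.17), and Egln3, an oxygen-sensing prolyl hydroxylase, at 33.2 ± 10.4 against 8.97 ± 5.75 (2.20 ± 0.84). Next came Baiap2l2 (2.14), the sulfotransferase Chst2 (1.96), Etl4 (1.82), Apoe, the pyrophosphate exporter Ank (1.74), Clec7a, the transcription factor Bhlhe40 (1.72), the endosomal GTPase Rab7b (1.66), the receptor partner Ramp1 (1.56) and the receptor kinase Axl (1.55). In AppSAA mice given ATV:ISO, Etl4 (1.67), Lox (1.53), Baiap2l2 (1.51) and Egln3 (1.49) led these genes and Rab7b stood at 0.76, while in WT mice given ATV:ISO Rab7b stood at 4.04 and Lox at 3.70. At the other end, among genes of at least 20 CPM in the other cells, stood genes of dividing cells besides Bank1 and Tgm2. Mki67 was at 1.77 ± 1.33 CPM against 46.9 ± 43.2 (-4.74 ± 1.71), followed by Cenpf (-3.60), Pclaf (-3.11), Birc5 (-2.77), Tk1 (-2.74), Bank1 (-2.57), Tgm2 (-2.15) and Rad51ap1 (-2.10).

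A gene counted as measured with a mean of at least 10 CPM in cluster 3 or in the cells compared with it. Of the cell-cycle list, 8 of 22 measured genes were lower than the other cells in every mouse, beside 15.7% of all genes. None was higher in every mouse, beside 3.41% of all genes, and the median log2 ratio was -1.88. In AppSAA mice given ATV:ISO alone that median was -0.41. The summed level of the list in the other cells was 417 to 474 CPM in those mice and 2067 to 2508 CPM in AppSAA mice given ATV:4D9, and in cluster 3 it was 239 to 273 and 216 to 288 CPM. Against cluster 0 only 8 genes of the list were measured, with a median of -0.11 and 0 of them of 1 direction in every mouse. Most of the 22 genes thus entered through the level of the other cells, and their low ratios follow in part from that filter. The medians against the other cells and against cluster 0 cover different sets of genes.

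Against finer cluster 0 more of the plaque-associated pattern was visible than against all other cells. Of 8300 genes, 551 were higher in cluster 3 in every one of the 17 mice (6.64%) and 2016 lower (24.3%), and the median gene had a log2 ratio of -0.38. Among genes of at least 20 CPM in cluster 3 with the same sign in every mouse, the largest mean ratios over the 17 mice belonged to Bhlhe40 (4.60 ± 1.09, SD), the chemokine Cxcl14 (4.45 ± 1.28), the fatty-acid binding proteins Fabp3 (4.38 ± 1.08) and Fabp5 (4.04 ± 0.57), Baiap2l2 (4.30), Rab7b (4.29), the growth factor Igf1 (4.27 ± 0.83), Etl4 (4.00), Flt1 (3.98), the lipoprotein lipase Lpl (3.97 ± 1.02), Gm1673 (3.92) and Lox (3.84). Bhlhe40 and Cxcl14 had means of 1.02 and 1.06 CPM in cluster 0, and all of these 12 genes but Fabp5 and Lpl stood at 0 there in 1 to 3 of the mice, so the ratios of these 10 depend on the prior count, the small count added before the logarithm. In AppSAA mice given ATV:ISO alone, Rab7b (4.64), Igf1 (4.55), Etl4 (4.54) and Lpl (4.45) led these 12 genes, with Bhlhe40 at 4.31 and Cxcl14 at 4.10. Among genes of at least 20 CPM in cluster 0 with the same sign in every mouse, the lowest were Bank1 (-3.29), Tmem44 (-3.05), the interleukin receptor chain Il7r (-2.75), Tmem204 (-2.69), Tspan18 (-2.30), Camk2n1 (-2.29), the lens-type crystallin Crybb1 (-2.24) and Gimap6 (-2.23).

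Receptors and adaptors of the plaque response were higher in every mouse for 12 of 18 measured genes and lower in every mouse for 0, beside 6.64% and 24.3% of all genes. Their median log2 ratio against cluster 0 was 0.87. Lilrb4a, an inhibitory receptor, and Lgals3, a galectin, stood at 3.80 ± 1.30 and 3.70 ± 1.46, and Axl at 3.50 ± 0.65 (SD, n = 17). Trem2 and Tyrobp were higher by 0.56 ± 0.19 and 0.92 ± 0.21 on the log2 scale. Fcgr2b, an inhibitory Fc receptor, had a mean log2 ratio of 0.00 ± 0.23, which is above the median gene (-0.38).

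Among secreted ligands and chemokines, 11 of 20 measured genes were higher than in cluster 0 in every mouse, beside 6.64% of all genes, and 2 were lower, with a median of 1.74. Besides Cxcl14 and Igf1 these included the cytokine Il1b (3.36 ± 0.86), the growth factor Csf1 (3.32 ± 0.54), Spp1, which encodes osteopontin (3.00 ± 0.86), and the chemokines Ccl4 (2.45 ± 0.46) and Ccl3 (2.31 ± 0.33). The 2 lower genes, a smaller share than the 24.3% of all genes, were Cst3 (-0.63) and Tgfb1 (-0.26), and Tgfb1 lay above the median gene (-0.38).

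Of 18 measured lipid genes, 9 were higher than in cluster 0 in every mouse, beside 6.64% of all genes, and 4 were lower, a share near the 24.3% of all genes. Those higher included Fabp3, Fabp5, Lpl, Apoe, the sterol hydroxylase Ch25h (3.80) and the lipid-droplet coat Plin2 (1.29 ± 0.37). Those lower were the prostaglandin synthase Hpgds (-0.74), the lysosomal phospholipase Pla2g15 (-0.74), the lysosomal cholesterol exporter Npc1 (-0.47) and Scarb2 (-0.39). Scarb2 lay near the median gene (-0.38). The cholesterol exporter Abca1 was lower in 16 of 17 mice (-0.88 ± 0.45).

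Of the lysosomal list, 12 of 25 genes were higher than in cluster 0 in every mouse and 1 lower, beside 6.64% and 24.3% of all genes, the shares against which the counts of the next lists can be read too. Lyz2 (2.01 ± 0.33), Cd63 (1.25 ± 0.16), Ctsb (1.07 ± 0.09) and Ctsd (0.94 ± 0.13) were among those higher. Antigen-presentation genes were higher in every mouse for 8 of 13, with Cd74 at 2.43 ± 0.87 and H2-Aa at 2.46 ± 0.77. Glycolysis genes were higher for 10 of 15 and lower for 1, and immediate early genes, which also respond to tissue dissociation, for 15 of 17.

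All 20 homeostatic microglia genes were lower than in cluster 0 in each of the 17 mice, beside 24.3% of all genes. The median log2 ratio was -0.91. Tmem119 stood at 458 CPM against 1389 (-1.65 ± 0.33), the purinergic receptor P2ry12 at 1008 against 2808 (-1.48 ± 0.21), and Cx3cr1, the fractalkine receptor, at 2444 against 4634 (-0.93 ± 0.14). Crybb1 had the lowest ratio of the list and Jam2 the one nearest to 0 (-0.37 ± 0.18), near the median gene (-0.38).

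**Figure D3:**
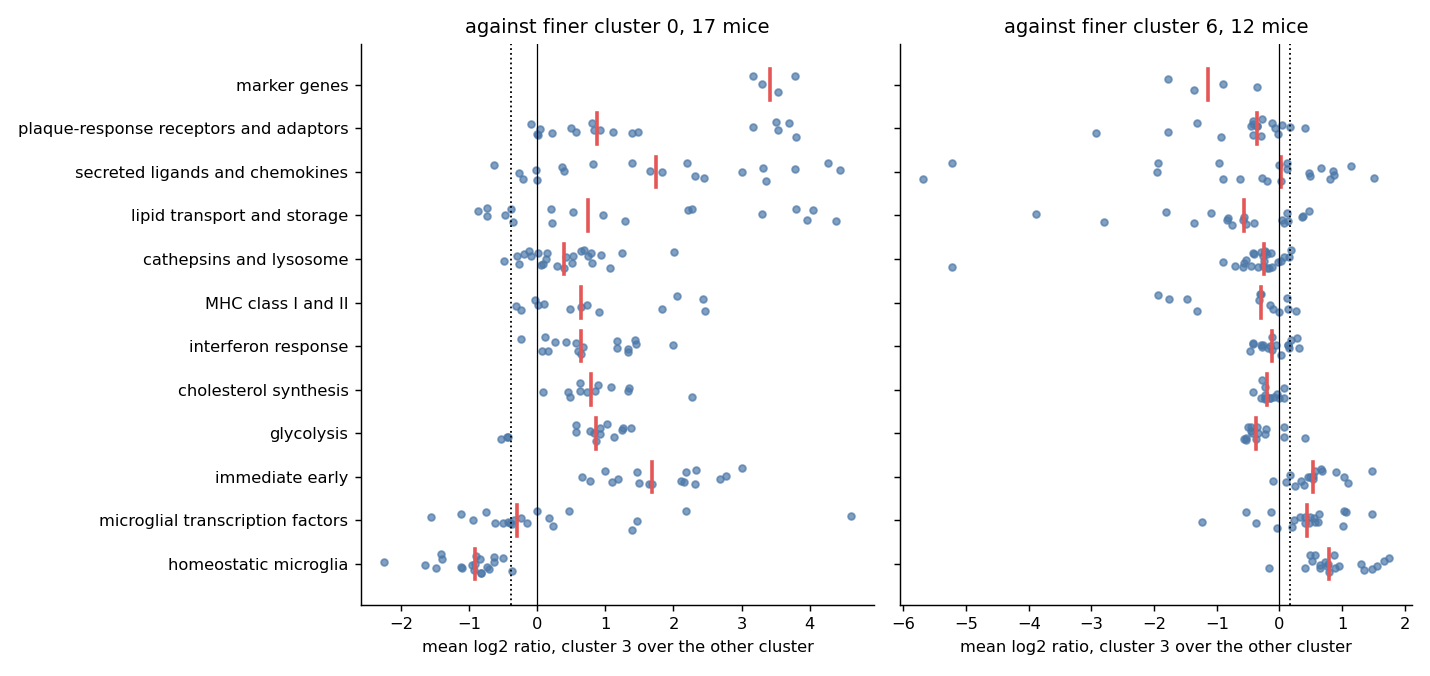
Mean log2 ratio of each listed gene, cluster 3 over finer cluster 0 (17 mice, left) and over finer cluster 6 (12 AppSAA mice, right). Each point is a gene, red bars are list medians and the dotted line is the median of all genes described. Homeostatic genes lie below 0 on the left, with a median of -0.91, and mostly above 0 on the right, where the median is 0.78.

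Finer cluster 6 carried the same 4 markers at higher levels, and for these markers cluster 3 lay between it and the resting cells. This comparison used the 12 AppSAA mice. Apoe stood at 12710 CPM in cluster 3 against 32657 in cluster 6 (mean log2 ratio -1.37 ± 0.11, SD, n = 12), Itgax at 171 against 588 (-1.78 ± 0.16), Cst7 at 2318 against 4321 (-0.90 ± 0.11) and Clec7a at 563 against 723 (-0.36 ± 0.10). All 4 were lower in cluster 3 in each mouse.

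Of 7607 genes, 2385 were higher in cluster 3 than in cluster 6 in every mouse (31.4%) and 722 lower (9.49%). The median gene had a log2 ratio of 0.17 in this comparison. At least 2-fold apart in every mouse were 25 higher genes (0.329%) and 68 lower genes (0.894%). Gpnmb, a glycoprotein of lysosome-rich macrophages, stood at 17.4 ± 9.14 CPM in cluster 3 and at 846 ± 343 CPM in cluster 6 (-5.69 ± 0.49). Spp1 stood at 184 ± 105 against 6537 ± 2557 CPM (-5.23 ± 0.37), and Atp6v0d2, a proton-pump subunit, at 2.07 ± 1.09 against 77.2 ± 19.0 CPM (-5.23 ± 0.66). Apoc4 (-3.88), the scavenger receptor Colec12 (-3.37) and Ahnak2 (-3.35) followed among genes of at least 20 CPM in cluster 6. Higher in cluster 3 were Adgrg1, an adhesion receptor (93.7 ± 14.1 against 24.7 ± 5.55 CPM, 1.93 ± 0.15), Tcap (1.88), BC035044 (1.85), Crybb1 (1.75), the fructose transporter Slc2a5 (1.66) and Rtn1 (1.66).

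Homeostatic genes were higher in cluster 3 than in cluster 6 in every mouse for 19 of 20, Fcrls being the exception (-0.17 ± 0.11). P2ry12 stood at 955 against 381 CPM (1.35 ± 0.14) and Tmem119 at 390 against 135 CPM (1.56 ± 0.22). Lysosomal genes were lower for 18 of 26, lipid genes for 12 of 19 and glycolysis genes for 12 of 15, and each of these lists had 1 to 3 genes higher in every mouse. Of 21 measured secreted ligands and chemokines, 6 were higher in cluster 3 in every mouse and 7 lower. Over all genes these shares were 31.4% and 9.49%, which apply to the other lists of this comparison too. The transcripts of Ccl3 (0.49 ± 0.19), Ccl4 (0.80 ± 0.23) and Il1b (1.14 ± 0.37) were higher in cluster 3 in all 12 mice, while Igf1 (-1.95) and Cxcl14 (-1.93) were lower. Immediate early genes were higher in every mouse for 10 of 17. After thinning to 3000 UMIs, a UMI of Gpnmb was found in 2.75% of the cells of cluster 3 and 39.2% of those of cluster 6 in AppSAA mice given ATV:ISO, and one of Spp1 in 16.4% and 62.6%. Without thinning the Gpnmb shares were 8.07% and 56.2%, and the Spp1 shares 42.0% and 85.4%. In cluster 0 the thinned shares were 1.13% for Gpnmb and 6.90% for Spp1.

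Marker lists of other cell types stood at different levels in cluster 3. In AppSAA mice given ATV:ISO, 5 neuron markers summed to at most 0.521 CPM, 5 astrocyte markers to 0.935 to 2.68, 7 lymphocyte markers to 2.29 to 2.86, 5 monocyte markers to 2.89 to 7.77 and 7 neutrophil markers to 4.93 to 17.9 CPM. The 8 border macrophage markers summed to 14.6 to 26.5 CPM. The 5 endothelial markers summed to 31.5 to 51.2 CPM, most of it from Flt1 (23.9 to 43.4 CPM), which is among the largest ratios over cluster 0 given above, while the tight-junction gene Cldn5 stood at 0.2 CPM or less. The 5 oligodendrocyte markers summed to 43.4 to 56.3 CPM, most of it from Mbp (29.2 to 36.3 CPM), while Mog stood at 0.2 CPM or less. The part of RNA from other cells in these levels was not tested.

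The remaining comparisons were made between groups of mice within cluster 3, to ask how its cells differed with antibody and genotype. They took 16 mice in 4 groups. WT mice given ATV:4D9 were left out, since only 1 of them had 20 cells. The summed depth was 11762629 to 25863464 UMIs per mouse with ATV:ISO, 9426288 to 18718576 with 4D9 and 3682326 to 9274049 with ATV:4D9 in AppSAA mice, and 391950 to 639472 in WT mice given ATV:ISO. edgeR's quasi-likelihood test was run over 11606 genes, with Benjamini-Hochberg adjustment. The cells compared are those that kept the label of cluster 3, and how that selection moves a level was not tested. The 3 comparisons among AppSAA mice share their groups, so their values are given side by side.

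ATV:4D9 raised interferon-response genes and lowered sterol-synthesis genes in cluster 3 of AppSAA mice. Against ATV:ISO, 119 genes were called higher (1.03%) and 74 lower (0.638%) at an adjusted p under 0.05 in edgeR, and against 4D9, 132 higher (1.14%) and 50 lower (0.431%). With the pool as a replicate block the calls rose to 498 higher (4.29%) and 447 lower (3.85%) against ATV:ISO, which include all 193 calls made without the block, and to 461 higher (3.97%) and 366 lower (3.15%) against 4D9. With all 16 mice thinned to the smallest sum, that of a WT mouse with 391950 UMIs, 26 and 31 calls were left. Of the genes named below by the rule of largest changes, Irf7, Slfn5, Rtp4, Zbp1, Egr2, Plau, Lgi2, Ch25h and Pcp4 were then not called against ATV:ISO. Against 4D9, Irf7, Rtp4, Zbp1, Egr2, Plau, Ch25h and Mrc2 were then not called, and each of these genes kept its direction. Over all comparisons within cluster 3, some genes of the rule gave no result in that thinned fit. The calls of other list members named below were not checked after thinning. With AppSAA mice only, thinned to their own smallest sum of 3682326 UMIs, 144 and 141 calls were left, and no gene named by the rule lost its call.

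Between 4D9 and ATV:ISO, edgeR called 0 genes higher (0.0%) and 0 lower (0.0%). There, 69 genes had an unadjusted p under 0.05, and DESeq2, limma voom and the blocked fit called 0 too.

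Interferons switch on antiviral genes such as Isg15, a ubiquitin-like modifier, Irf7, a transcription factor, and Ifit3, an RNA-sensing adaptor. Isg15 in cluster 3 stood at 34.1, 27.3, 30.5 and 28.5 CPM with ATV:ISO, at 34.6, 28.1, 24.3 and 24.4 CPM with 4D9 and at 125, 67.1, 69.2 and 48.4 CPM with ATV:4D9. All 4 ATV:4D9 mice lay above the other 8, and replicate 1 was the highest. The log2 fold change against ATV:ISO was 1.38 ± 0.22 (SE, edgeR, adjusted p = 7.2e-04), and against 4D9 it was 1.49 ± 0.22 (adjusted p = 2.6e-04).

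Of the 22 genes of the interferon list, 19 were called higher against ATV:ISO and 20 against 4D9, beside 1.03% and 1.14% of all genes. None was called lower. The median log2 fold change of the list was 1.12 and 1.26 in these comparisons, beside -0.01 for all genes in each. Irf7 rose from 11.5 ± 1.87 to 31.5 ± 10.6 CPM (SD, n = 4; log2 fold change 1.46, adjusted p = 1.5e-04), Ifit3 from 15.2 ± 1.18 to 38.1 ± 15.0 (1.33, adjusted p = 3.5e-04), Rtp4 from 24.7 to 59.3 (1.28) and the nucleic acid sensor Zbp1 from 11.7 to 28.1 (1.26). Ifi207 (1.40), Slfn5 (1.33) and the receptor Cd244a (1.26), which the list does not hold, were among the 8 largest rises against ATV:ISO, and Oasl2 of the list (1.49) among those against 4D9. Not called against ATV:ISO were Bst2 (0.41), Ifi27l2a (0.74) and Cmpk2 (0.56).

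**Figure D4:**
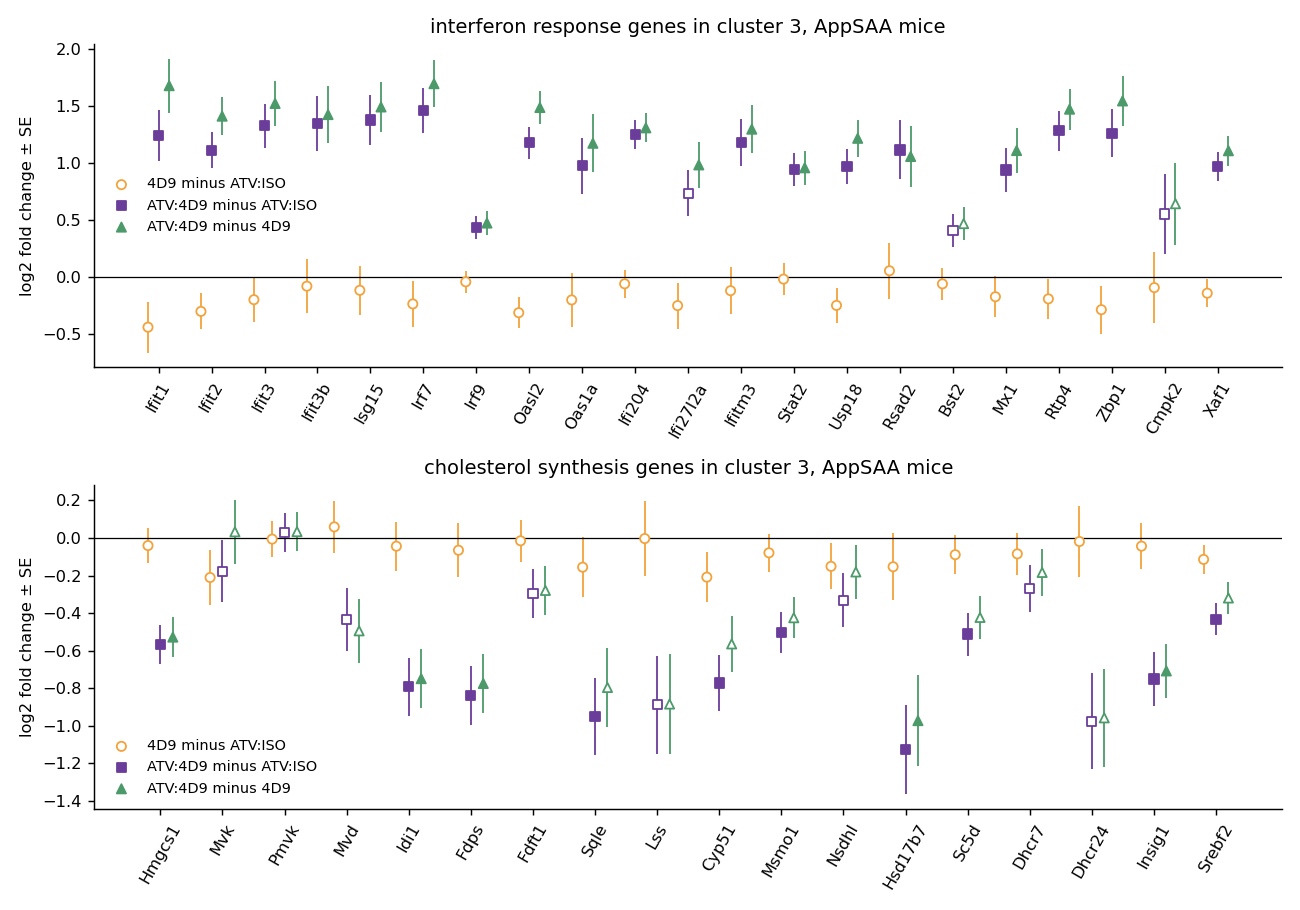
Log2 fold changes (± SE) of the interferon-response genes (top) and cholesterol-synthesis genes (bottom) within cluster 3 of AppSAA mice, for 3 comparisons of antibodies. Filled symbols passed an adjusted p of 0.05 in edgeR and open ones did not. With ATV:4D9 the filled interferon symbols lie above 0 and the filled sterol symbols below 0, and no symbol is filled for 4D9 against ATV:ISO; 3 genes of the lists are not plotted.

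The summed level of the list in AppSAA mice went from 1158 CPM with ATV:ISO to 2018 with ATV:4D9 in cluster 3, and from 684 to 1178 CPM in cluster 0 (means of 4 mice, not tested). Cluster 0 of these mice held 5871 cells with ATV:ISO and 428 with ATV:4D9. In cluster 3 the single mice stood at 1276, 1197, 1152.5 and 1004 CPM with ATV:ISO and at 2555, 1968, 1887 and 1662 CPM with ATV:4D9. After thinning to 3000 UMIs, an Isg15 UMI was seen in 7.85% of the cells of cluster 3 with ATV:ISO and in 15.7% with ATV:4D9, against 6.48% and 11.4% in cluster 0 and 7.58% and 25.1% in cluster 6. The shares without thinning were 27.8% and 42.6% in cluster 3, 14.5% and 23.5% in cluster 0 and 30.3% and 58.2% in cluster 6. In all cells outside cluster 3 the summed list went from 1048 to 1307 CPM with ATV:ISO to 4345 to 6048 CPM with ATV:4D9 (ranges of 4 mice), and the part of RNA from those cells in the levels of cluster 3 was not tested.

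The promoters of Isg15 and Ifit3 are shown because both genes rose and hold the letters of the interferon-stimulated response element. Windows run from 250 bases before to 50 after the start site, are given 5′ to 3′ on the gene's strand, and come from RefSeq on GRCm38.p6. Capitals mark GAAANNGAA on either strand, and overlapping matches run together. This 9-letter motif was in 8.56% of all 32851 windows, in 9 of the 15 interferon-list genes with a window and in 0 of the 14 sterol-list genes with one. A gene counted when any of its windows held the motif, so the gene counts and the share of windows are unlike measures. The window of Isg15 is chr4:156200769-156201068 on the minus strand and that of Ifit3 chr19:34583279-34583578 on the plus strand.
Isg15: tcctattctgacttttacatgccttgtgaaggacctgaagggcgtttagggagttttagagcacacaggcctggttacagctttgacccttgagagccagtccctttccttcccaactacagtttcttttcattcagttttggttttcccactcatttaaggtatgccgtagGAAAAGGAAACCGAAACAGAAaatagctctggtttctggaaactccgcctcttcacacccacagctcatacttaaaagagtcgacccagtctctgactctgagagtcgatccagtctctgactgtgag
Ifit3: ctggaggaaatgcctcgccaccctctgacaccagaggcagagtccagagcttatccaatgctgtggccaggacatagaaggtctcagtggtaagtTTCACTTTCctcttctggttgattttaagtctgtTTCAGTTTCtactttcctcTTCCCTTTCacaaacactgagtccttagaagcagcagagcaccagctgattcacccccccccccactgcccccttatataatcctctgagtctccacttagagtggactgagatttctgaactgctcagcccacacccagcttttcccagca

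Sterol synthesis is switched on by the transcription factor SREBP2 when cells are short of cholesterol. Of the 20 cholesterol-synthesis genes, 11 were called lower against ATV:ISO and 6 against 4D9, beside 0.638% and 0.431% of all genes. None was called higher. The median log2 fold change of the list was -0.54 and -0.51, beside -0.01 for all genes in each. Fdps, a prenyl synthase, stood at 51.4, 58.5, 50.7 and 52.8 CPM with ATV:ISO, at 67.2, 45.1, 49.1 and 42.6 CPM with 4D9 and at 34.4, 31.4, 22.5 and 28.7 CPM with ATV:4D9. The ATV:4D9 mice lay below all others (-0.84 ± 0.16 against ATV:ISO, SE, adjusted p = 0.0037 in edgeR). Hmgcs1, the HMG-CoA synthase, fell from 48.0 to 31.95 CPM (-0.57), Insig1 from 28.6 to 16.99 (-0.75) and Srebf2, which encodes SREBP2, from 36.8 to 26.7 CPM (-0.43). With the pool as a block, 14 of the 20 genes were called lower in each of the 2 comparisons, beside 3.85% and 3.15% of all genes.

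The summed level of this list in cluster 3 was 488 CPM with ATV:ISO, 462 with 4D9 and 331 with ATV:4D9. In cluster 0 of the same mice it was 230, 223 and 266 CPM (means of 4 mice, not tested). These cluster 0 levels rest on 5871, 4157 and 428 cells. The promoter window of Hmgcs1 (chr13:119690101-119690400, plus strand) is shown as the 1 sterol-list gene of 14 with a window that holds TCACNCCAC, the letters of a sterol regulatory element, given in capitals. That motif was in 1.24% of all windows on either strand, a share per window and not per gene.
Hmgcs1: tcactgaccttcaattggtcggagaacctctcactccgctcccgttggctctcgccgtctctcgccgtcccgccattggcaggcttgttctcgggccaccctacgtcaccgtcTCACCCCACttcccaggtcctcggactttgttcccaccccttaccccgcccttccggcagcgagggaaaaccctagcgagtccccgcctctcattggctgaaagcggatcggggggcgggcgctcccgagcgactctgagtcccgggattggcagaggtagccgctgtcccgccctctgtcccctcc

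Of the 21 lipid genes, 3 were called higher and 3 lower with ATV:4D9, against ATV:ISO and against 4D9 alike. Over all genes, 1.03% and 0.638% were called against ATV:ISO, and 1.14% and 0.431% against 4D9. With the pool as a block, 5 of the 21 were called higher and 3 lower against ATV:ISO, beside 4.29% and 3.85% of all genes. Against 4D9 the block gave 3 higher and 3 lower, beside 3.97% and 3.15% of all genes. Lpl stood at 691, 696, 767 and 705 CPM with ATV:ISO, at 606, 666, 719.5 and 616 CPM with 4D9 and at 345, 329, 373 and 351 CPM with ATV:4D9. The ATV:4D9 mice lay below all others, whose groups overlapped, and the log2 fold change against ATV:ISO was -1.01 ± 0.17 (SE, adjusted p = 0.0015 in edgeR). Ch25h, which makes 25-hydroxycholesterol, fell from 53.1 ± 14.6 to 27.2 ± 5.04 CPM (-0.96). The cholesterol exporters Abca1 (0.62, adjusted p = 0.017 in edgeR) and Abcg1 (0.46) and the apolipoprotein Apoc4 (1.47) rose.

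Of the 22 secreted ligands and chemokines, 2 were called higher and 3 lower, against ATV:ISO and against 4D9 alike. Over all genes, 1.03% and 0.638% were called against ATV:ISO, and 1.14% and 0.431% against 4D9. With the pool as a block, 8 of the 22 were called higher and 7 lower against ATV:ISO, beside 4.29% and 3.85% of all genes. Against 4D9 the block gave 6 higher and 8 lower, beside 3.97% and 3.15% of all genes. Ccl12 rose from 203 ± 62.7 to 469 ± 202 CPM (log2 fold change 1.23, adjusted p = 0.0065 in edgeR) and Ccl2 from 45.1 ± 15.9 to 86.6 ± 24.4 CPM (0.97, adjusted p = 0.018), both ligands that draw monocytes. Ccl6 stood at 1484, 1094, 1328 and 892 CPM with ATV:ISO, at 1489, 1411, 1252 and 1120 CPM with 4D9 and at 559, 615, 691 and 535 CPM with ATV:4D9. The ATV:4D9 mice lay below all others, whose groups overlapped (-0.98 ± 0.17 against ATV:ISO, SE, adjusted p = 0.0015 in edgeR). Ccl3 fell by 0.70 and Ccl9 by 0.79 on the log2 scale. Il1b stood at 345 ± 87.4 CPM with ATV:ISO and 570 ± 206 CPM with ATV:4D9 (0.76) and was not called (adjusted p = 0.083 in edgeR), though it was with the pool as a block (adjusted p = 0.0062).

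Of the 20 plaque-response receptors and adaptors, 3 were called higher and 1 lower against ATV:ISO, beside 1.03% and 0.638% of all genes. Against 4D9, 3 were called higher and 0 lower, beside 1.14% and 0.431%. With the pool as a block, 3 were called higher and 5 lower against ATV:ISO, beside 4.29% and 3.85% of all genes. Against 4D9 the block gave 3 higher and 4 lower, beside 3.97% and 3.15%. Among these receptors, Fcgr2b rose from 241 to 346 CPM (0.55, adjusted p = 6.3e-04 in edgeR), Fcgr4, an activating Fc receptor, from 18.9 to 30.0 CPM (0.69) and Lag3, an inhibitory receptor, from 349 to 454 CPM (0.40). The tetraspanin Cd9 fell from 3214 to 2450 CPM (-0.37). The same 3 rises were called against 4D9, and Cd9 was not. Further large falls against ATV:ISO were those of Il4i1, an amino-acid oxidase (103 to 37.3 CPM, -1.45), the transcription factor Egr2 (-1.08), the plasminogen activator Plau (-1.03), Lgi2 (-0.98) and Pcp4 (-0.90). Pcp4 was not called in limma voom (adjusted p = 0.087) nor, in edgeR, without ATV:4D9 replicate 2 (adjusted p = 0.053) or 3 (0.062). Against 4D9 the deubiquitinase Otud1 (-0.99) and the collagen receptor Mrc2 (-0.83) were among the 8 largest falls.

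For the label's own markers the call depended on the fit. In the fit without the block none of the 4 was called in any comparison of antibodies. Against ATV:ISO the log2 fold change was 0.57 ± 0.19 (SE) for Apoe, 0.29 ± 0.12 for Cst7, -0.39 ± 0.11 for Clec7a and 0.11 ± 0.13 for Itgax (edgeR, adjusted p = 0.18, 0.38, 0.096 and 0.89). With the pool as a block Apoe (adjusted p = 0.020) and Cst7 (0.042) were called higher and Clec7a (9.7e-04) lower, in edgeR. Apoe and Clec7a were also called when the WT mice were left out of the fit (edgeR, adjusted p = 0.010 and 0.036, an alternative added after seeing the data). Of the 20 homeostatic genes 0 were called in either direction, and 2 were called higher and 2 lower with the block, which called 4.29% of all genes higher and 3.85% lower. Of 26 lysosomal genes 0 were called, and with the block 2 were called higher and 1 lower. Trem2 stood at 5289 ± 332 CPM with ATV:ISO and 4545 ± 423 CPM with ATV:4D9 (-0.19 ± 0.10, SE, adjusted p = 0.53 in edgeR).

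**Figure D5:**
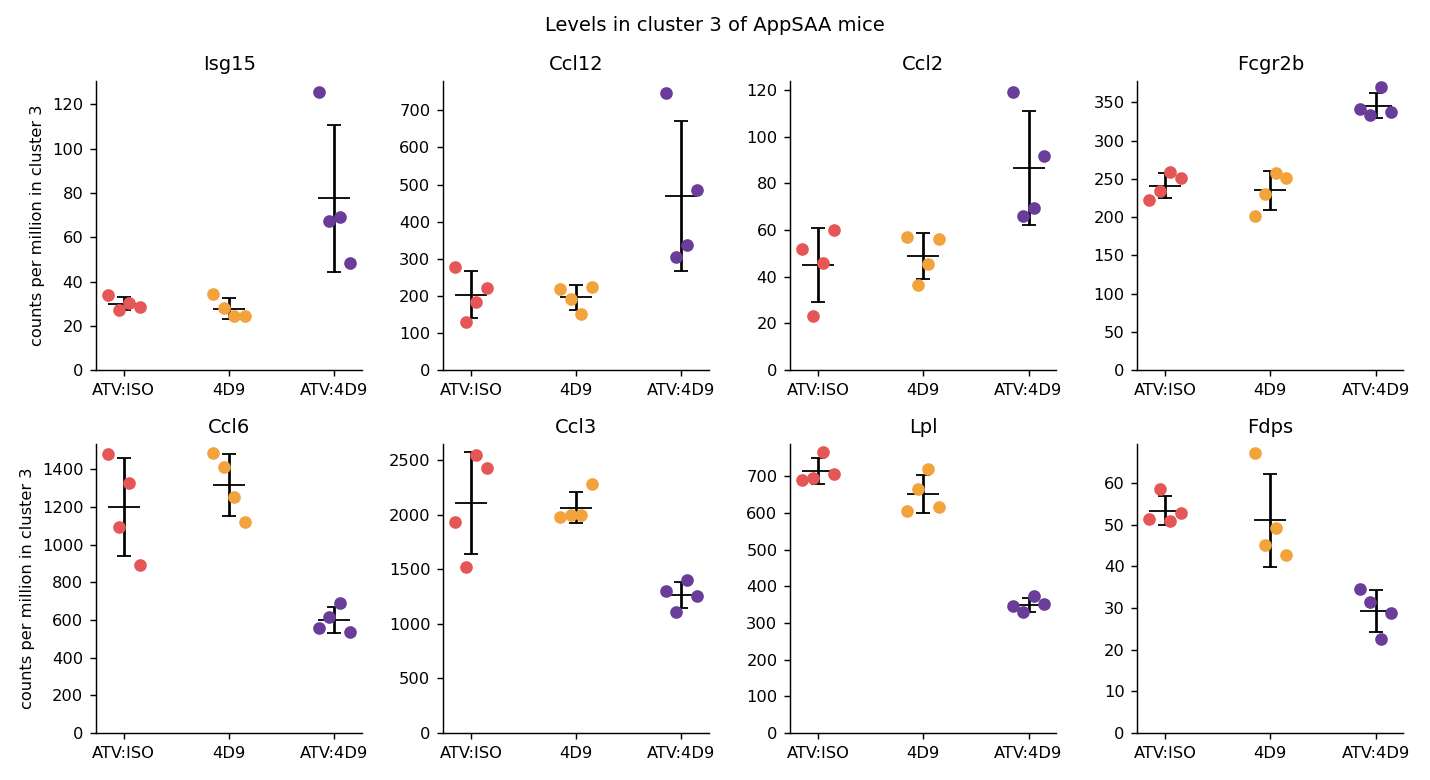
Levels of 8 genes in cluster 3 of AppSAA mice, in CPM on linear axes from 0, by antibody. Points are mice, horizontal bars are means and vertical bars are SD (n = 4). Isg15, Ccl12, Ccl2 and Fcgr2b are higher with ATV:4D9 than with ATV:ISO, and Ccl6, Ccl3, Lpl and Fdps lower.

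The few cells of cluster 3 in WT mice differed from those of AppSAA mice in both directions. With ATV:ISO, 111 genes were called higher in AppSAA (0.956%) and 119 lower (1.03%) in edgeR, or 376 (3.24%) and 262 (2.26%) with the pool as a block. Cst7 stood at 1169, 649, 959 and 1034 CPM in WT and at 2286, 2219, 2237 and 1962 CPM in AppSAA mice, without overlap (1.28 ± 0.13, SE, adjusted p = 4.85e-06). Apoe stood at 8866, 23222, 18840.3 and 17884 CPM in the WT mice and was not called (-0.62, adjusted p = 0.10), with replicate 1 below and the other 3 above every AppSAA mouse given ATV:ISO. Without WT ATV:ISO replicate 1 it was called lower in AppSAA (-0.83, adjusted p = 0.0014, edgeR).

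Higher in AppSAA were the growth factors Igf1 (129 ± 21.5 against 49.5 ± 18.9 CPM, 1.39) and Csf1 (1.04), Ccl6 (1.20), Tyrobp (0.55), Trem2 (0.47), Cd9 (0.42), Cd180 (0.44), Fabp3 (1.22) and the hypoxia factor Hif1a (1.05). The largest rises of the fixed rule were Cxcl2 (3.50), Etl4 (2.27), Tsc22d1 (1.85), Baiap2l2 (1.80), Tmem163 (1.71), Lgi2 (1.65), Asb10 (1.62) and Pcp4 (1.61). Lower in AppSAA were Spp1 (138 ± 47.0 against 398 ± 181 CPM, -1.46), Lgals3 (-1.33), Ccl5 (-2.31), Abca1 (-0.84), the homeostatic genes Crybb1 (-0.98) and P2ry6 (-0.50), and by the rule Ms4a7 (-2.65), Arhgap15 (-2.60), Clec4a2 (-2.09), AB124611 (-2.04), Pirb (-1.70), Pim1 (-1.69), Klf2 (-1.66) and Serpinf1 (-1.39). Of the lysosomal genes 5 of 26 were called higher and 1, Psap, lower, beside 0.956% and 1.03% of all genes.

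Ms4a7 is also a marker of border macrophages. The 8 markers of those cells summed to 43.4 to 128 CPM in cluster 3 of the WT mice and to 14.6 to 26.5 CPM in that of the AppSAA mice given ATV:ISO, with none of the 8 at 0 in all mice of a group. Of 7 tested, 1 was called lower in AppSAA, Ms4a7 itself, and 2 with the pool as a block, beside 1.03% and 2.26% of all genes. The mean sum in WT mice was 71.1 CPM in cluster 3 and 31.8 CPM in the other cells. In AppSAA mice given ATV:ISO it was 22.2 and 29.6 CPM. The part of such cells in these differences was not tested. The WT sums come from 22 to 45 cells, and the number of calls fell to 135 with all mice thinned to the smallest sum, Lgi2 and Serpinf1 among those lost. Without WT ATV:ISO replicate 2, or without replicate 4, it fell to 129. Of the genes named by the rule, Cxcl2, Lgi2, Pcp4 and Pim1 were not called without replicate 2, Lgi2 and Pim1 without replicate 3 and Cxcl2, Pcp4 and Serpinf1 without replicate 4, while each kept its direction. Pcp4 was also not called without AppSAA ATV:ISO replicate 1 or in limma voom.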

How the data were processed

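The data are single-cell RNA-seq counts of sorted brain myeloid cells from 20 mice in 4 capture pools. Per the labels the authors aligned reads with Cell Ranger 6.1.1 to mm10, and they deposited UMI counts per gene and cell, each cell's mouse, cluster numbers and mitochondrial percent. The deposited counts were used as they are. No doublet caller was run here, and whether doublets were removed before deposit is not given in the sources used here. The methods name CD11b+ sorting while the series text adds Cd45.

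Counts were summed per mouse and cluster, keeping sums of at least 20 cells. Log2 ratios between clusters of a mouse used CPM with a prior count of 2. They were described for genes with a mean of at least 10 CPM in either set of cells compared. Genes were named from at least 20 CPM when their sign was the same in every mouse (largest 12 and smallest 8; 6 and 6 against cluster 6), or, within cluster 3, when called and without overlap (8 each way), plus members of the lists. Groups within cluster 3 were compared with edgeR 4.0.16 (TMM, filterByExpr, quasi-likelihood; R 4.3.3), with each SE taken as the log2 fold change over the square root of its F value, and with DESeq2 1.42.0 and limma 3.58.1 as alternatives. Other tests were two-sided exact permutation tests. The edgeR fit without the block was tested, for ATV:4D9 against ATV:ISO, on simulated counts drawn without a pool effect. The values of some list members are counted but not reported here. Each pool held 1 mouse of every group and so pairs the mice. Same-pool deviations within cluster 3 correlated with r from 0.0061 to 0.502 in 24 pairs, 16 of them over 0.1. P-values measure the spread between mice. The members and the 22 gene lists were chosen with earlier results of these data known.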

Additional observations from a re-analysis of the deposited data

Results flagged for a closer look

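The fall of the share of cluster 3 with ATV:4D9 was larger in AppSAA than in WT mice, by -16.6 percentage points (p = 0.0286 by an exact permutation of 4 against 4 within-pool differences, which can give no smaller p). The WT share began at 1.20%, which bounds the WT fall, so the test in points cannot tell whether the genotypes responded differently. On the logit scale the difference between genotypes was -0.249 (exact permutation test, p = 0.429). Shares, median UMIs per cell and the 4 marker genes were also checked for single mice apart from the other 3 of their group, by Dixon's ratio of the gap to the range at its 95% critical value. None of the 25 groups of values passed it, though with 4 mice only a very wide gap can. WT ATV:ISO replicate 2 had a share of 1.83% beside 0.870% to 1.09%, AppSAA ATV:4D9 replicate 1 one of 7.14% beside 10.7% to 12.001%, and WT ATV:ISO replicate 1 had 8866 CPM of Apoe in cluster 3 beside 17884 to 23222 CPM.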

How the results depend on the processing

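The direction of 5 of the 6 share comparisons held under every alternative run. Leaving out 1 mouse leaves no way to pass the threshold (smallest exact permutation p = 0.0571). The differences then ran from 25.0 to 27.6 points (AppSAA against WT, ATV:ISO), from 9.21 to 10.8 (same, ATV:4D9), from -0.850 to -0.532 (ATV:4D9 against ATV:ISO, WT), from -18.5993 to -15.9622 (same, AppSAA) and from -18.0956 to -16.1959 (ATV:4D9 against 4D9). For 4D9 against ATV:ISO, which was not called, they ran from -1.37 to 1.27, and coarser cluster 1 gave 1.13. Cells of 1000 to 25000 UMIs moved the WT fall to -0.539, no longer past the threshold, and the logit scale moved the difference between genotypes to -0.249. The differences of median UMIs without 1 mouse changed sign for 4D9 against ATV:ISO (-391.208 to 845.125) and for AppSAA against WT (-1392.29 to 35.2).

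The count of genes at least 2-fold higher than the other cells in every mouse (3) became 76 against cluster 0, 30 without cluster 6, 6 with TMM factors, 9 with cells of 1000 to 25000 UMIs, 20 in AppSAA mice given the isotype and 8 in AppSAA mice only (added after seeing the data). Leaving out 1 pool gave 3 to 7. The count lower (4) became 25 against cluster 0, 16 with cells of 1000 to 25000 UMIs, 96 in AppSAA mice given the isotype, 20 when genes down to a mean of 1 CPM entered, 55 in AppSAA mice only, and 6 to 12 without 1 pool. The limits of 1000 to 25000 UMIs left 14 mice in place of 17, so both counts there cover fewer mice. Against cluster 0 the list medians changed sign for interferon-response (0.65), secreted ligand (1.74) and complement genes (-0.16). With TMM factors the secreted ligand and transcription factor medians changed sign, without moving by over 1 SD. The secreted ligand, complement and immediate early medians did so under other alternatives, also without moving by over 1 SD. With TMM factors the complement median kept its sign but moved by over 1 SD, to 0.20.

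Within cluster 3, the pool as a replicate block gave 945, 827 and 638 calls for ATV:4D9 against ATV:ISO, against 4D9 and AppSAA against WT, in place of 193, 182 and 230. DESeq2 gave 333, 307 and 396, limma voom 189, 183 and 321, and thinning to the smallest sum, 391950 UMIs, gave 26, 31 and 135. With AppSAA mice only and thinned to their own smallest sum (added after seeing the data) the first 2 were 144 and 141. Without 1 mouse they ran from 133 to 189, 122 to 167 and 129 to 226. For 4D9 against ATV:ISO no filter gave 2 calls, and 0 without any 1 mouse. Beside the calls lost on thinning, Pcp4 lost its call in 2 comparisons in limma voom, and Cxcl2, Lgi2, Pcp4, Pim1 and Serpinf1 lost theirs in fits without 1 mouse. No gene named by the rule and called in edgeR changed direction in the fits where it had a result, while uncalled markers with fold changes near 0 did. The cause of these differences was not tested, other than the fewer counts that thinning leaves.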
